A study of Mus musculus with 7 samples.

Results

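The desmosome and envelope plaque genes examined here are 10 genes chosen by name: the plakins Dsp, Ppl and Evpl, the desmosomal cadherins Dsc2 and Dsg2, the armadillo-repeat plaque genes Jup, Pkp1, Pkp2 and Pkp3, and the desmosomal membrane gene Perp. All 10 were among the 18193 genes with a probe set of their own, and all 10 were bright enough to be tested with 12497 genes. They were measured in whole mammary glands of virgin female FVB mice bearing PyV-MT, the middle T oncogene of polyoma virus, from which mammary tumours arise. From 4 weeks of age, for 4 weeks, these mice ate either control chow (AIN93G) or chow supplemented with conjugated linoleic acid (CLA) at 1%, that is, isomers of linoleic acid whose double bonds are conjugated. Glands were taken at 8 weeks of age. Every animal compared carries the oncogene, so both groups share it, and its promoter is not named in the sources used here. Of 5 mice given control chow and 6 given CLA chow in the study, 3 and 4 have an array here.

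A desmosome is a spot-like junction that ties the keratin filaments of neighbouring epithelial cells together. Its cadherins, the desmogleins and desmocollins, bridge the gap between cells, plakoglobin (Jup) and the plakophilins (Pkp1 to Pkp3) bind their tails, and desmoplakin (Dsp) links this plaque to keratin. Periplakin (Ppl) and envoplakin (Evpl) are relatives of desmoplakin that also form the first scaffold of the cornified envelope, the protein shell of the outermost skin cells. In the mammary gland desmosomes hold luminal and myoepithelial cells to each other. Dsp and Pkp2 are also made in heart and other tissues.

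Values are MAS5 signals, a linear brightness per probe set, with a trimmed mean of 500.003 on each array. Titles of control replicate 1 and CLA replicate 1 carry numbers that start with 27 and those of the other 5 arrays numbers that start with 28. What these numbers stand for is not stated in the labels. Skeletal muscle transcripts differed widely between arrays, with a summed signal of 10 marker genes from 10365 to 98690 in control and from 380 to 15381 in CLA glands. White adipocyte markers summed to between 46120 and 56251 in control and between 15065 and 36922 in CLA glands. The Actb 3′ to 5′ ratio, which is higher in more degraded RNA, reached 2.78 on CLA replicate 3 against 1.41 to 1.88 elsewhere. The epithelium of the labelled tissue was present on every array. Of 17 tested epithelial markers, among them Epcam and Krt8, the dimmest, Cldn4, read at least 856, and the list had summed signals of 102215 to 130478 in control and 112480 to 122495 in CLA glands. Because the arrays come from whole glands, fewer cells of a type and less RNA per cell cannot be told apart.

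None of the 10 members passed limma's test over all genes at an adjusted p under 0.05, where 0% of the 12497 genes did. At an unadjusted p under 0.05, 2 of 10 members, Dsp and Ppl, were higher in CLA glands, where 5.39% of all genes tested differed in either direction and 2.38% were higher. No member was lower at that threshold, where 3.01% of all genes were. The same 2 genes were the members whose CLA arrays all lay above their control arrays, a pattern that 2.64% of all genes showed, and no member had the opposite pattern, shown by 2.67% (5.31% for both). Of the members, 7 had a positive and 3 a negative change. Their median log2 change was 0.25, against 0.03 over all genes tested, of which 55.3% had a positive change. In what follows, signals are listed in replicate order, control replicates 1 to 3 and then CLA replicates 1 to 4.

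**Figure D1:**
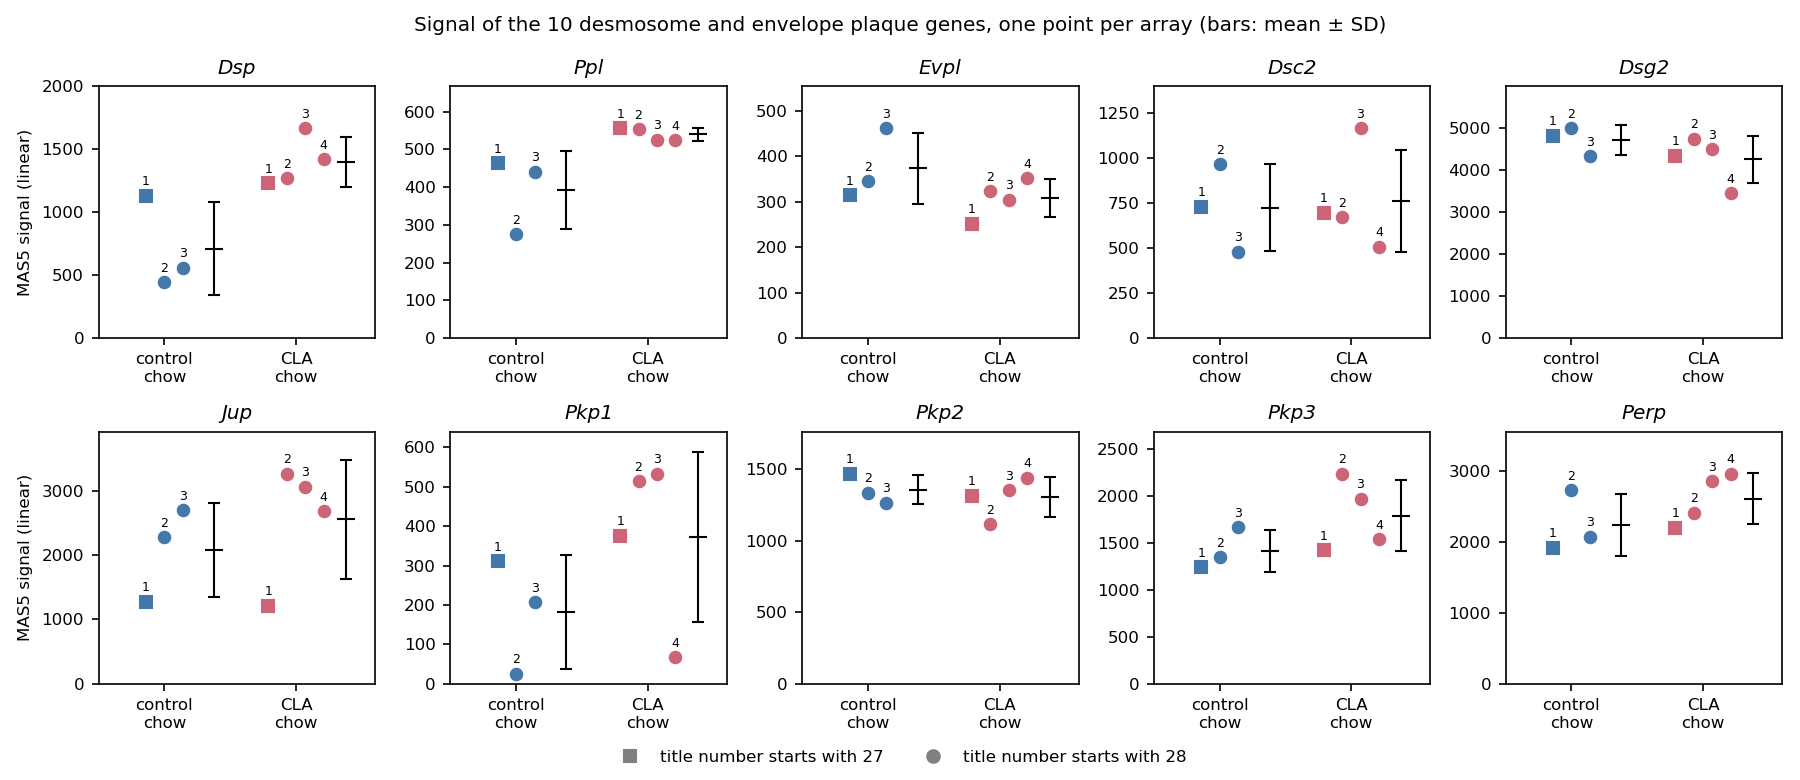
Each panel plots the MAS5 signal (linear axis from 0) of 1 gene on its brightest probe set, with 1 point per array labelled by replicate number, squares for title numbers starting with 27, circles for 28, and bars for mean ± SD (n = 3 control, n = 4 CLA). Dsp and Ppl are the panels in which all CLA points lie above all control points. For Dsp the gap is narrow because control replicate 1 reads 1130 and CLA replicate 1 reads 1230.

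Dsp encodes desmoplakin, without which the plaque has no anchor on keratin. Signals were 1130, 443 and 557 in control and 1230, 1272, 1669 and 1420 in CLA glands. The CLA arrays lay together, while the control arrays split into 1 near the CLA level and a pair well below it. Control glands averaged 710 ± 368 (SD, n = 3) and CLA glands 1398 ± 198 (SD, n = 4). The log2 change was 1.09 ± 0.29 (SE), a 2.12-fold higher signal, with a 95% interval from 0.44 to 1.74. Limma's unadjusted p was 0.00409, rank 67 of 12497 genes, and its adjusted p over all genes was 0.688. The difference was not the same across title numbers. It was 0.12 between the arrays starting with 27, 1 per group, and 1.54 among those starting with 28. With the title number as a block it was 1.12. Leaving out control replicate 1 gave 1.48, with limma's adjusted p at 0.0555, the lowest reached by Dsp under any alternative.

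The start regions of Dsp and Jup are shown because these were the 2 of 10 members matched in the promoter sequences. A chromosome was left out of that match beforehand. Dsp had the smallest p of the members, and Jup is a plaque partner whose groups overlapped. Both regions were taken from RefSeq promoter sequences (GRCm38.p6). Only these 2 of the 10 members were examined in this way, and the start regions of the other members were not searched. The 250 bases before the start are written 5′ to 3′ on the gene's strand, with capitals on GC boxes, the letters GGGCGG searched on both strands. The Dsp window is chr13:38151044-38151293 on the plus strand and the Jup window is chr11:100397791-100398040 on the minus strand.

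Dsp: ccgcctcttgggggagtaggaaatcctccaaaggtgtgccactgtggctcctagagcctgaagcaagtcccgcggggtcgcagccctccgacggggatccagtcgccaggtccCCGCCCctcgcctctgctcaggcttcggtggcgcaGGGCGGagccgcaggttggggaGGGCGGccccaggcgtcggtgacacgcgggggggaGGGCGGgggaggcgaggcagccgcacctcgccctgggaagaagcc
Jup: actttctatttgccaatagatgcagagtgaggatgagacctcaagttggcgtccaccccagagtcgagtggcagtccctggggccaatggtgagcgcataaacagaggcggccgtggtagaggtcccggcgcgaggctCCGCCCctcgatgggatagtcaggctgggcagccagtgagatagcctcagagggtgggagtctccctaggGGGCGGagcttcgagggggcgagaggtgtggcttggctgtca

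The Dsp window held 4 GC boxes and the Jup window 2, and 32.7% of 32851 such windows held at least 1. G and C made up 72.4% of the Dsp window and 62% of the Jup window, where the median window had 52.4%. Neither held TGANTCA (AP-1, in 6.75% of windows), AACCNGTT (grainyhead factors, 1.79%) or CAGGTG (an E-box of Snail-type repressors, 17.2%), each searched on both strands. A match or its lack describes these letters alone.

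The other Dsp probe sets had the same sign but separated the groups less well. The second, 1435493_at, read 512, 353 and 235 in control and 508, 647, 1152 and 502 in CLA glands. Its groups overlapped, because control replicate 1 lay above CLA replicates 1 and 4. Its log2 change was 0.92 ± 0.34 (SE), with limma's unadjusted p of 0.0220 and adjusted p of 0.983 over all 34945 probe sets with 1 gene symbol. The third and dimmest, 1427610_at, read 100, 41.2 and 40.2 in control and 115, 76.7, 32.0 and 119 in CLA glands, with a change of 0.47 ± 0.56. On CLA replicate 3, which had the highest signal on the brighter pair, this probe set had its lowest. That array is also the one with the highest 3′ to 5′ ratio, whose part in this was not tested. Without CLA replicate 3 the change of the brightest Dsp probe set was 1.00, and the mean of the 3 probe sets changed by 0.83 ± 0.27 over all arrays.

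Ppl encodes periplakin, a plakin of the cornified envelope that also binds keratin and vimentin. Signals were 464, 275 and 441 in control and 557, 553, 526 and 525 in CLA glands. The CLA arrays were nearly level, and control replicate 2 was the array that stood lowest. Control glands averaged 393 ± 103 (SD, n = 3) and CLA glands 540 ± 17.1 (SD, n = 4), 1.41-fold higher. The log2 change was 0.50 ± 0.21 (SE), a 95% interval of 0.03 to 0.96, an unadjusted limma p of 0.0385 and an adjusted p of 0.884 over all genes. Within the 27 pair Ppl was higher in the CLA gland by 0.26, and among the 28 arrays it was higher by 0.62. Without control replicate 2 the Ppl change was 0.26, with limma's unadjusted p of 0.181.

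Evpl encodes envoplakin, which pairs with periplakin in the envelope scaffold. Signals were 314, 346 and 463 in control and 251, 323, 305 and 352 in CLA glands. The groups overlapped, and the change had the opposite sign to that of its partner, -0.27 ± 0.21 (SE), a 95% interval of -0.74 to 0.19 and an unadjusted limma p of 0.221. The sign was negative under all 18 alternatives, from -0.53 to -0.11. The difference between partners was therefore set out on each array. Ppl minus Evpl on the log2 scale lay between -0.33 and 0.56 in control and between 0.58 and 1.15 in CLA glands. The groups did not overlap, though the gap between them was small. The shift of 0.77 had an exact permutation p of 0.0571, two-sided, the smallest that 35 splits of 3 against 4 arrays can give. Dsp minus Evpl shifted by 1.36, also with an exact permutation p of 0.0571. These were 2 of 7 pairs compared within the protein families, a comparison chosen after the values were seen, and the adjusted p over the 7 pairs was 0.2 for both exact tests. Within title numbers starting with 27 and 28, the Ppl minus Evpl shift was 0.59 and 0.91 and the Dsp minus Evpl shift 0.44 and 1.83. The third plakin pair, Dsp minus Ppl, shifted by 0.59, with an exact permutation p of 0.171, and by -0.14 within title numbers starting with 27.

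**Figure D2:**
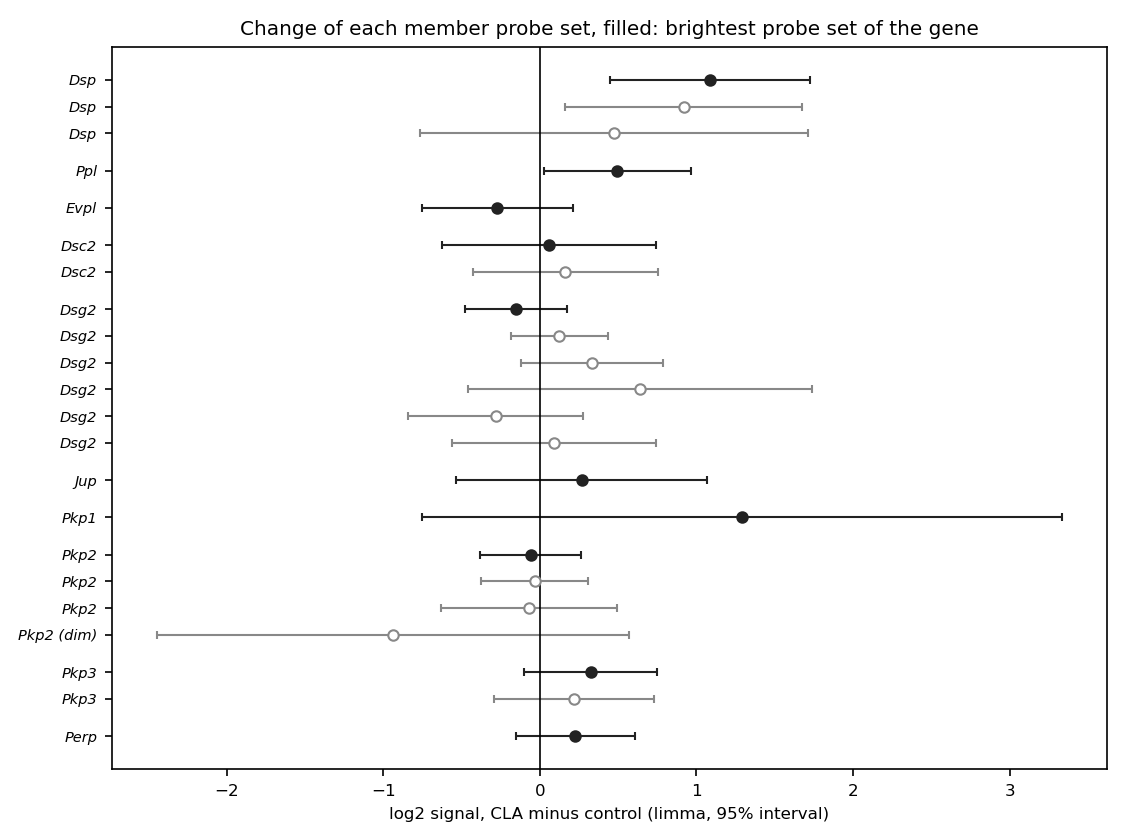
The horizontal axis is the log2 signal difference, CLA minus control, for each of the 22 probe sets of the 10 members, with 95% limma intervals from the fit over all 34945 probe sets with 1 symbol. Filled points are the brightest probe set of a gene and "dim" marks the probe set with a mean below the filter signal of 57.7. The intervals of 3 probe sets, those of Ppl and the brighter pair of Dsp, lie wholly above 0, and no interval lies wholly below it.

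Desmosomal cadherins, the adhesive part of the junction, had no difference past the test. Dsg2, the desmoglein of simple epithelia, had 6 probe sets. The brightest read 4807, 4995 and 4318 in control and 4335, 4738, 4495 and 3450 in CLA glands. CLA replicate 4 was the lowest array and the other CLA arrays lay within the control range. Its log2 change was -0.15 ± 0.14 (SE), with a 95% interval from -0.47 to 0.16. Without CLA replicate 4 it was -0.056. The Dsg2 probe sets disagreed in sign. The second, 1449740_s_at, had 0.13 ± 0.14, and the other 4 ran from -0.28 for 1449741_at to 0.64 for 1460380_at, so that the mean of the 6 changed by 0.13. None of the 6 had separate groups. Dsc2, the desmocollin that partners Dsg2, read 729, 965 and 479 in control and 695, 672, 1167 and 506 in CLA glands. Both groups spanned about the same range, and the change was 0.06 ± 0.31 (SE), with a 95% interval from -0.64 to 0.75. Its sign turned without control replicate 3, at -0.21, and without CLA replicate 3, at -0.17. The other Dsc2 probe set, 1421156_a_at, had 0.16 ± 0.26, and on it CLA replicate 3 read 343, the lowest CLA value, where the brighter probe set had its highest.

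Jup encodes plakoglobin, a relative of beta-catenin found in desmosomes and adherens junctions. Signals were 1277, 2276 and 2695 in control and 1214, 3263, 3062 and 2687 in CLA glands. The lowest array of each group was the one whose title number starts with 27, and the 5 arrays starting with 28 were all above both. The log2 change was 0.27 ± 0.36 (SE), a 95% interval of -0.55 to 1.08 and an unadjusted limma p of 0.481. Within 27 it was -0.07 and within 28 it was 0.27. Among control arrays, replicate 1 was thus the lowest for Jup and the highest for Dsp.

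The plakophilins, which bind desmoplakin and widen the plaque, had no difference past the test. Pkp1, the plakophilin of stratified epithelia, had the widest spread of any member. Signals were 311, 25.5 and 208 in control and 375, 514, 532 and 67.5 in CLA glands. Control replicate 2 was below the filter signal of 57.7 and CLA replicate 4 just above it, so the groups overlapped although control glands averaged 181 ± 144 (SD, n = 3) and CLA glands 372 ± 215 (SD, n = 4). The log2 change of Pkp1 was 1.29 ± 0.93 (SE), numerically above that of Dsp, but its 95% interval ran from -0.79 to 3.37 and limma's unadjusted p was 0.196. Without CLA replicate 4 it was 1.99, with limma's unadjusted p of 0.0364 and adjusted p of 0.723. It was also 1.99 without control replicate 1, with limma's unadjusted p of 0.0784, 1.70 without control replicate 3 and 0.18 without control replicate 2. On CLA replicate 4 Dsp read 1420, so a low Pkp1 did not go with a low Dsp there.

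Pkp3, a plakophilin of most epithelia, read 1240, 1347 and 1668 in control and 1422, 2236, 1970 and 1543 in CLA glands. CLA replicates 2 and 3 were above every control array and the other CLA arrays were within the control range. The change was 0.33 ± 0.19 (SE), a 95% interval of -0.10 to 0.76 and an unadjusted limma p of 0.122, and its dimmer probe set had 0.22 ± 0.23. Without CLA replicate 2 the Pkp3 change was 0.21. Pkp2, the plakophilin of simple epithelia and heart, varied least among the plakophilins. It read 1469, 1336 and 1269 in control and 1318, 1118, 1354 and 1443 in CLA glands. The change of Pkp2 was -0.06 ± 0.14 (SE), with a 95% interval from -0.38 to 0.26, which leaves out a 2-fold change in either direction. Of its other probe sets, 1429183_at had -0.03 and 1460511_at -0.07, while 1420259_at, with signals from 5.46 to 19.0, was below the filter. With that probe set included, the mean of the 4 changed by -0.27. The 3 plakophilin pairs shifted by 1.35 (Pkp1 minus Pkp2), 0.96 (Pkp1 minus Pkp3) and -0.38 (Pkp2 minus Pkp3), with exact permutation p-values of 0.343, 0.4 and 0.229. No pair could pass 0.05 in this test, because 35 splits give an exact permutation p of 0.0571 at the smallest.

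Perp encodes a small membrane protein of desmosomes and is a known target of the transcription factors p53 and p63. Signals were 1912, 2724 and 2066 in control and 2197, 2407, 2846 and 2953 in CLA glands. Only control replicate 2 reached into the CLA range. The change was 0.23 ± 0.17 (SE), a 95% interval of -0.15 to 0.61 and an unadjusted limma p of 0.214. It was 0.20 both within 27 and within 28, but 0.12 without control replicate 1 and 0.38 without control replicate 2.

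The arrays ranked differently for different members. CLA replicate 3 was highest for 3 members, Dsp, Dsc2 and Pkp1, and lowest for 0. Control replicate 2 was lowest for 3, Dsp, Ppl and Pkp1, and highest for Dsg2. Each of the 7 arrays was the highest for at least 1 of the 10 members.

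**Figure D3:**
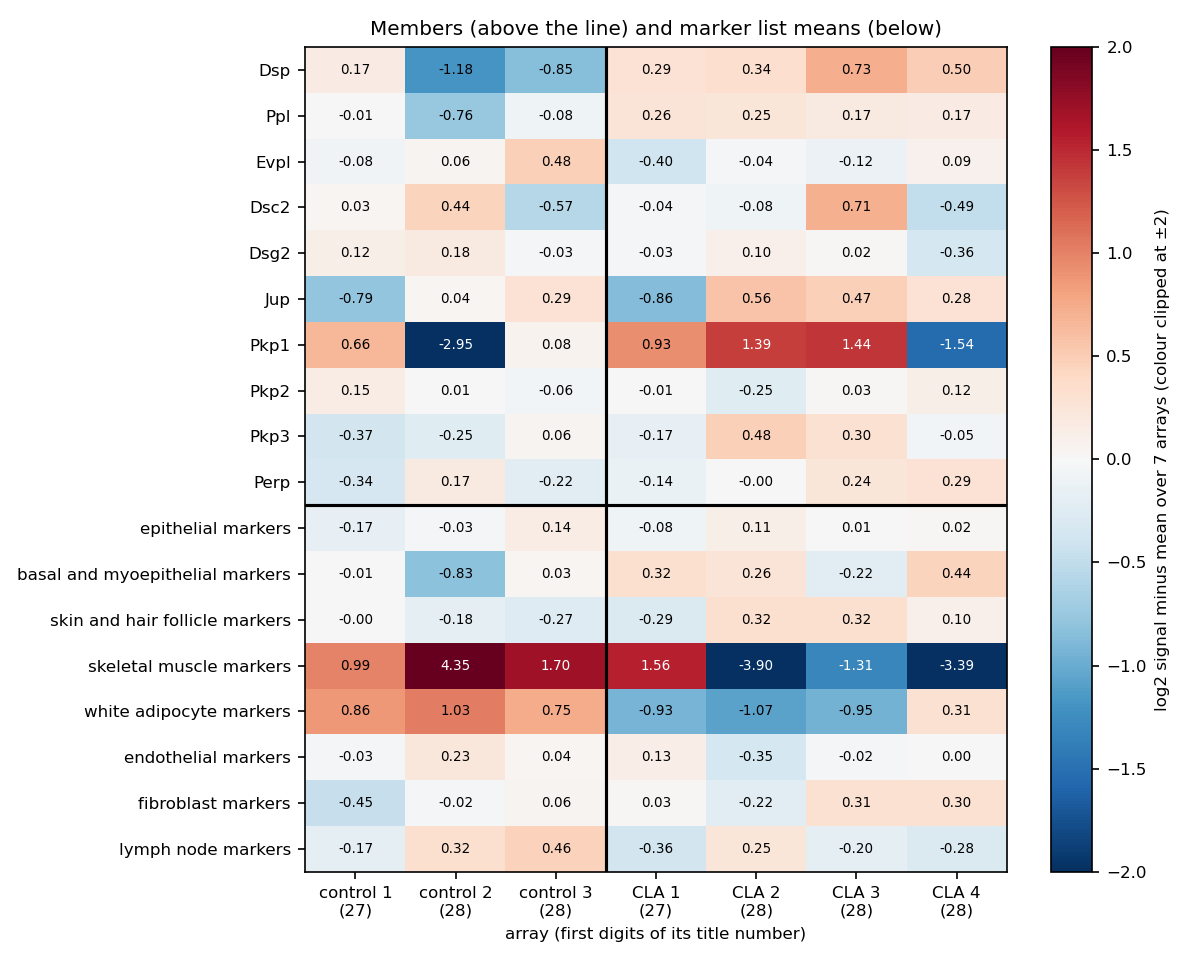
Each cell gives the log2 signal of a member, or the mean of a marker list, on 1 array minus its mean over the 7 arrays, with colour clipped at 2 in either direction. Columns are the 3 control and 4 CLA arrays with the first digits of their title numbers. Control replicate 2 has the lowest values of Dsp (-1.18), Ppl (-0.76), Pkp1 (-2.95) and the basal list (-0.83) and the highest of the muscle list (4.35), while the epithelial list stays between -0.17 and 0.14.

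Markers of the cell types that make or dilute these transcripts were set beside Dsp and Ppl. The epithelial list differed little between diets. Its median log2 change was 0.05 over 17 tested genes, 0 had separate groups, and with its mean as a covariate the change was 1.16 for Dsp and 0.50 for Ppl. Of 9 basal and myoepithelial markers, all tested, 5 had a positive and 4 a negative change, with a median of 0.25 and summed signals of 5246 to 8360 in control and 7885 to 10849 in CLA glands. Among them the basal keratin genes Krt17 and Krt5, whose filaments desmoplakin anchors in basal cells, had separate groups like Dsp. Krt5 read 1476, 579 and 559 in control and 1731, 2198, 1631 and 1858 in CLA glands, with control replicate 1 again the highest control. Within title numbers starting with 27 and 28, the change was 0.45 and 2.25 for Krt17 and 0.23 and 1.73 for Krt5. The groups of a further basal keratin gene, Krt14, with a change of 1.40, overlapped. Control replicate 1 read 1004 there and CLA replicate 4 read 839. The contractile markers of the same list had changes of both signs, 0.41 for Cnn1, 0.25 for Tagln, -0.02 for Mylk, -0.04 for Acta2 and -0.59 for Myh11, none of them with an unadjusted limma p under 0.05. With the basal list as a covariate, an alternative chosen after seeing the data, the change was 0.88 ± 0.35 (SE) for Dsp and 0.22 ± 0.21 for Ppl, with limma's unadjusted p of 0.0348 and 0.319.

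Skeletal muscle markers, 10 of 10 tested, were lower in CLA glands at an unadjusted p under 0.05, with a median of -4.12, but the groups overlapped for all 10. Within the 27 pair all 10 were higher in the CLA gland, by 0.29 to 0.88, and among the 28 arrays all 10 were lower, by -7.01 to -4.34. Control replicate 2, lowest for Dsp and Ppl, had by far the highest muscle signal. With the muscle list as a covariate the Dsp change was 0.71 ± 0.41 (SE) and that of Ppl 0.27 ± 0.31, with limma's unadjusted p of 0.124 and 0.403, and 0 of 10 members were then under 0.05, where 2.45% of all genes were. White adipocyte markers were lower at the same threshold in 9 of 9 tested, with a median of -1.52, and their part in the member results was not tested.

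Skin also makes desmosome transcripts, and of 8 skin and hair follicle markers 2 had a mean above the filter. The list summed to between 403 and 523 in control and between 426 and 1133 in CLA glands. The keratin gene Krt1 of the upper epidermis read 11.0 to 50.9 in control and 11.4 to 51.6 on the CLA arrays other than replicate 3, where it read 439. Krt10, its partner, read 288 to 437 on those 6 arrays and 1078 on CLA replicate 3. That array was highest for Dsp, and without it the Dsp change was 1.00 ± 0.32 (SE), with limma's unadjusted p of 0.0125.

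**Figure D4:**
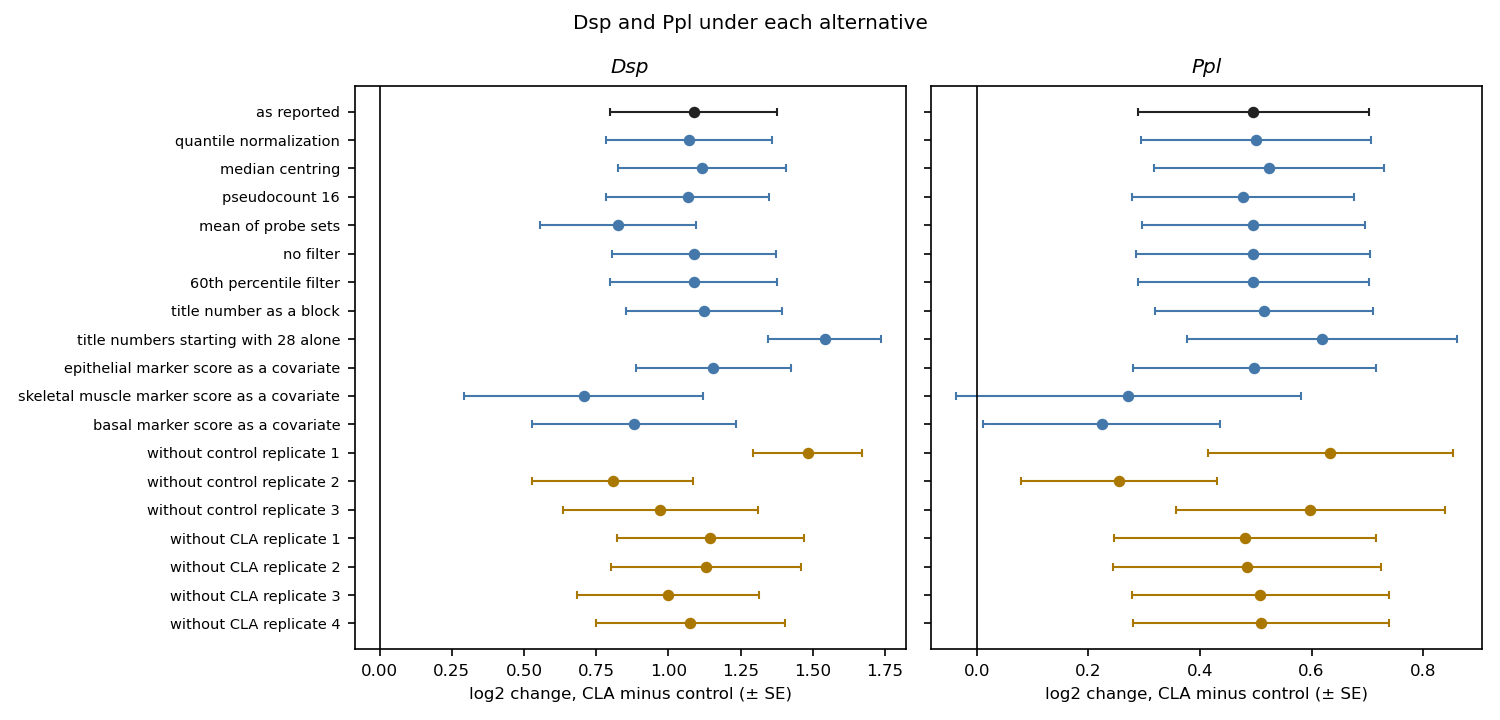
Points give the log2 change, CLA minus control, of Dsp (left) and Ppl (right) with standard errors, as reported (black), under other settings (blue) and with each array left out (brown). All values are above 0. Dsp ran from 0.71 with the muscle covariate to 1.54 in the arrays with title numbers starting with 28, and Ppl from 0.22 with the basal covariate to 0.63 without control replicate 1.

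Other genes of the junction and the envelope were counted by list. Of 10 further desmosome genes, 7 were on the array and 3 were tested, with 0 past the test. These were Cdsn, a desmosomal adhesion protein of the upper epidermis, at -0.54 ± 0.35 (SE), the plakophilin relative Pkp4 at 0.22 ± 0.17, and Kazn, a periplakin-binding protein, at -0.04 ± 0.27. The desmogleins and desmocollins of stratified epithelia, Dsg1a, Dsg1b, Dsc1 and Dsc3, had means below the filter signal.

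Of 25 genes of the cornified envelope and epidermal differentiation, 11 were tested, 3 with a positive and 8 with a negative change, a median of -0.24 and 0 past limma's test over all genes. The gene of this list with the smallest p, Dmkn, an epidermal secreted protein, read 1518, 3908 and 3953 in control and 1803, 1056, 1260 and 1433 in CLA glands. Its control arrays were split as those of Dsp were, but upside down, with control replicate 1 at the CLA level. The Dmkn change was -1.07 ± 0.33 (SE), with limma's unadjusted p of 0.00946 and adjusted p of 0.703. Sbsn, another secreted epidermal protein, had -0.27 and the protease gene Casp14 -0.47. The involucrin gene Ivl and the filaggrin gene Flg had means below the filter, and Lor, the main protein of the mature envelope, had -0.13. On CLA replicate 3 Flg read 97.2, against 4.17 to 18.4 on the other arrays.

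Adherens junction genes, which join actin and not keratin, had a median change of 0.00 over 13 tested genes, with 0 past the test, 0 under an unadjusted p of 0.05 and 0 with separate groups. The P-cadherin gene Cdh3 of basal cells had 0.75 ± 0.53 (SE), the actin linker Vcl 0.17 ± 0.12 and Nectin4 0.47 ± 0.40, while E-cadherin (Cdh1) had 0.00 ± 0.29. Hemidesmosome genes and other plakins, 9 tested, had a median of 0.05 and 0 past the test. Their smallest p-values belonged to Col17a1 at 0.54 ± 0.33 (SE), Lama3 at 0.32 ± 0.23 and Itgb4 at 0.25 ± 0.29, and the plakin genes Plec, Dst and Macf1 had 0.03, 0.05 and 0.00. Of 12 tested epithelial transcription factors 0 passed. Trp63, the p63 gene that governs basal epithelial identity, read 744, 215 and 291 in control and 673, 723, 837 and 433 in CLA glands. Control replicate 1 was again at the CLA level, and the change was 0.85 ± 0.40 (SE), with limma's unadjusted p of 0.0597 and -0.15 within title numbers starting with 27. Klf4 had -0.54 ± 0.24 and Ovol1 0.34 ± 0.30.

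Genes whose profile over the 7 arrays was most like that of Dsp were ranked by Pearson's r on log2 signals. The 5 highest of 12496 with an established name were Nol7, Krt17, Dnttip2, Prkrip1 and Ctnnal1, with r from 0.972 to 0.977 and exact permutation p from 0.000992 to 0.00476. Their Spearman's rho ran from 0.75 to 0.893, with exact permutation p from 0.0123 to 0.0663. After adjustment over all genes the permutation p of r was 0.493 for each, so none passed. Dsp lay at 2 levels, low on control replicates 2 and 3 and high on the other 5 arrays. Without that pair r ran from 0.498 to 0.902, so the likeness rested in part on these 2 arrays. Krt5 ranked 47, Trp63 195, Ppl 322 and Krt14 479, while the Dsp partners Jup and Dsg2 ranked 6542 and 9780. The remaining members ranked 1598 (Pkp1), 3537 (Pkp3), 4884 (Perp), 5608 (Pkp2), 5646 (Dsc2) and 11200 (Evpl). This order also depended on the arrays used. Without control replicates 2 and 3 r was 0.069 for Krt5, 0.006 for Trp63, 0.31 for Ppl and 0.38 for Krt14. For Jup it was then 0.70 and for Dsg2 -0.34. Among the arrays with title numbers starting with 28, which include both of these controls, Jup had r of 0.77 and Dsg2 -0.44. There r was 0.94 for Krt5, 0.91 for Trp63, 0.86 for Ppl and 0.83 for Krt14. Over all 7 arrays Jup had r of -0.002.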

How the data were processed

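Biotin-labelled total RNA of 7 mammary glands was hybridised to 1-colour Affymetrix arrays, per the labels' protocols. MAS5 made the deposited intensity values, as the submitters' processing notes say, and their scale is linear. Its version, the genome build and the authors' annotation are not given in the sources at hand. Every array had the same trimmed mean (2% off each end), so the authors' scaling was kept and each change is relative to the rest of a gland's transcripts. Groups came from the diet in the labels. Each sample is labelled as a mouse, and replicate numbers only name arrays. With so few arrays the precision of every value is limited.

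A floor of 1 was set before taking log2. Of 45101 probe sets, 64 controls were left out, and 34945 with exactly 1 symbol were used (932 had several, 9160 none), 34741 of them named through Entrez identifiers in a RefSeq table of GRCm38.p6. The probe set of highest mean stood for a gene. Tested were the 12497 genes whose mean reached the 40th percentile over probe sets, a signal of 57.7. The diets were compared in R 4.3.3 with limma 3.58.1 (CLA minus control, lmFit, eBayes with trend), two-sided, without covariates, with Benjamini-Hochberg adjustment over all genes and a threshold of 0.05. The fit was tested on simulated data with independent noise for each gene, so effects shared by the genes of an array were not part of that test. Differences between genes of a pair, and correlations with Dsp, were tested by exact permutation over the arrays. Marker scores are mean log2 signals, each gene centred over the arrays.

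The members, gene lists and alternatives were chosen with earlier results of these data known, so list counts are descriptions. Named genes were the members, the 3 of smallest p in each related list and the 5 most like Dsp. Others, such as Krt5, Krt1 and Krt10, the contractile marker genes, Cdh1, Lor, Ivl and Flg and the further plakin genes, were named after their values were seen. Alternatives were quantile normalization, median centring, a pseudocount of 16, probe sets averaged per gene, no filter, a 60th percentile filter, title number as a block, only the arrays starting with 28, marker scores as covariates and each array left out. Figures used matplotlib 3.10.9.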

Additional observations from a re-analysis of the deposited data

How the results depend on the processing

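No member passed limma's test over all genes under any of the 18 alternatives, the lowest adjusted p being 0.0555, for Dsp without control replicate 1. Of all 12497 genes, 17 passed without CLA replicate 4, 2 without control replicate 1 and 1 in the arrays starting with 28 alone. Under every other alternative 0 genes passed. Of the members, 6 kept their sign under all 18, Dsp, Pkp1, Pkp3, Ppl, Evpl and Perp. The sign turned under 1 alternative for Dsg2 and under 2 each for Dsc2, Jup and Pkp2. The log2 change of Dsg2 was 0.13 as the mean of its probe sets and that of Jup -0.29 under the muscle covariate. With an array left out, Dsc2 ran from -0.21 to 0.29, Jup from -0.052 to 0.59 and Pkp2 from -0.11 to 0.016. The cause was not tested. The number of members at an unadjusted p under 0.05 was 0 with the muscle score as a covariate, where 2.45% of all genes were. It was 3 (Dsp, Dsc2 and Perp) with the basal score, where 5.04% of all genes were. With an array left out it was 1 to 2, where 3.04% to 11% of all genes were. It was 1, Dsp, without control replicate 2 or without CLA replicate 1, 2 or 3. The number with separate groups was 2 to 4 with an array left out, where 6.95% to 21.1% of all genes had separate groups. It was highest without control replicate 3, where 10% of all genes had them. Without control replicate 1 it was 2, where 21.1% of all genes had them. Quantile normalization and median centring turned no member's sign, and the median change of all genes was 0.03 and 0.06 under them. Few residual degrees of freedom remain with any covariate or block, with an array left out and in the arrays starting with 28. The muscle score ran from 0.99 to 4.35 in control and from -3.90 to 1.56 in CLA glands. Muscle and diet are therefore hard to tell apart in the fit with that score. Low signals such as those of Pkp1 carry background. No paired analysis was possible because the titles give no replicate numbers shared between the diets.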
